A study of Venturia canescens with 18 samples.

Results

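Among the transcribed loci of female wasp heads, 59 stood higher after courtship by either kind of male than in isolation in each pool of heads measured. The loci were chosen on CPM (the count of a locus scaled to a pool total of 1000000 counts). A locus was taken when its mean over the isolated pools was at least 5 CPM and its CPM in each brother pool and each unrelated pool was at least 1.1 times that of the highest isolated pool. Of 16752 loci in the count table, 8268 reached the minimum level, and the 59 were 0.714% of these. The opposite pattern, with each courted pool at or below the lowest isolated pool divided by 1.1, was met by 193 loci, or 2.33%. Because these very pools chose the 59 loci, their levels in courted and isolated females are given below as a description with no test.

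The samples were heads of newly emerged virgin females of Venturia canescens, a parasitoid wasp whose larvae develop in caterpillars of the flour moth Ephestia kuehniella. The females descended from wasps caught in orchards of southern France. For at most 10 min, each was boxed with a brother (an incompatible mate), with an unrelated male (a compatible mate) or alone. Each of these groups held 3 biological replicates, sequenced as 2 technical replicates each, or 18 polyadenylated-RNA libraries. The labels give 10 pooled heads per condition without saying whether this is per replicate, and do not say whether replicates came from separate families. Spread between pools may therefore be technical in part, and pools of different groups held different females.

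In this species sex is set by complementary alleles at a single locus, and matched alleles in the offspring of brother-sister matings turn would-be daughters into diploid males, so that mating with a brother costs a female daughters. Courtship exposes her to wing fanning, touch and scent of the male. In insect brains, neuronal activity is known to raise transcripts of early-response genes within minutes, while most other transcripts change more slowly. None of the 59 identifiers was found in RefSeq's table of genes for this wasp, and the file pairs identifiers with neither names nor coordinates, so that no gene function or sequence can be given. In RNA from whole heads, more cells of a type and more RNA per cell cannot be told apart.

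Summed over technical replicates, the pools held 62341897 to 103527471 counts. Brother pool 1 lay apart from the others, at -100.3 on a first principal component that held 40.4% of the variance, against -13.29 to 33.99 for the other 8 pools. The pools also differed in how their counts were shared out among loci. The median over the 8268 loci of CPM relative to the isolated mean was 1.03, 0.937 and 0.958 in brother pools 1 to 3, against 1.00, 1.02 and 1.02 in unrelated pools 1 to 3 and 0.979, 1.02 and 0.994 in isolated pools 1 to 3. An ordinary locus thus stood lowest in brother pool 2, so that a fixed multiple in CPM was harder to reach there.

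The 59 loci spanned a wide range of expression. Their mean level in isolated pools ran from 5.06 to 5365 CPM with a median of 40.7 CPM, close to the median of 41.0 CPM over the 8268 loci. By mean level in isolated pools, 12 loci lay between 5 and 10 CPM, 24 between 10 and 50 CPM, 13 between 50 and 200 CPM and 10 above. The lowest count behind any of their values was 180 (exact Poisson 95% interval 155 to 208, counting error only, since PCR copies are not independent molecules). Together the loci summed to 14709.9, 14502 and 15525 CPM in brother pools 1 to 3 and to 14008, 13519 and 14581 CPM in unrelated pools 1 to 3, against 10152, 11146 and 10298 CPM in isolated pools 1 to 3. The means were 14912 ± 541 CPM, 14036 ± 532 CPM and 10532 ± 537 CPM for brother, unrelated and isolated pools (SD, n = 3 each).

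One very abundant locus supplied much of that sum. XLOC_014883, the member with the highest level in isolated pools, stood at 6592, 6505 and 7135 CPM in brother pools 1 to 3 and at 6196, 6038 and 6705 CPM in unrelated pools 1 to 3, against 5368, 5333 and 5394 CPM in isolated pools 1 to 3. Its isolated pools were nearly equal. The lowest courted pool, unrelated pool 2, was 1.12 times the highest of them, where the rule requires at least 1.1. Its mean was 6744 ± 341 CPM in brother pools and 6313 ± 349 CPM in unrelated pools, against 5365 ± 30.6 CPM in isolated pools (SD, n = 3 each). The remaining 58 loci summed to 8168 ± 202 CPM in brother pools and 7723 ± 212 CPM in unrelated pools, against 5167 ± 563 CPM in isolated pools (SD, n = 3 each).

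Most of the differences were modest. The ratio of brother to isolated mean CPM ran from 1.16 to 4.82 with a median of 1.52 over the 59 loci, and that of unrelated to isolated from 1.16 to 2.81 with a median of 1.48. Over the 8268 loci the medians of the same ratios were 0.988 and 1.01. The comparisons share the isolated pools, so their sizes are given side by side only. In brother pools 28 of the 59 loci lay under 1.5 times the isolated mean, 15 between 1.5 and 2 times and 16 at 2 times or more. In unrelated pools the corresponding numbers were 32, 20 and 7. Both courted groups reached 2 times the isolated mean in 6 loci. The larger ratios in brother pools rested in part on brother pool 1. Without it the median ratio of brother to isolated was 1.43, the highest was 3.13, 8 loci reached 2 times the isolated mean and 4 did so in both courted groups.

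**Figure D1:**
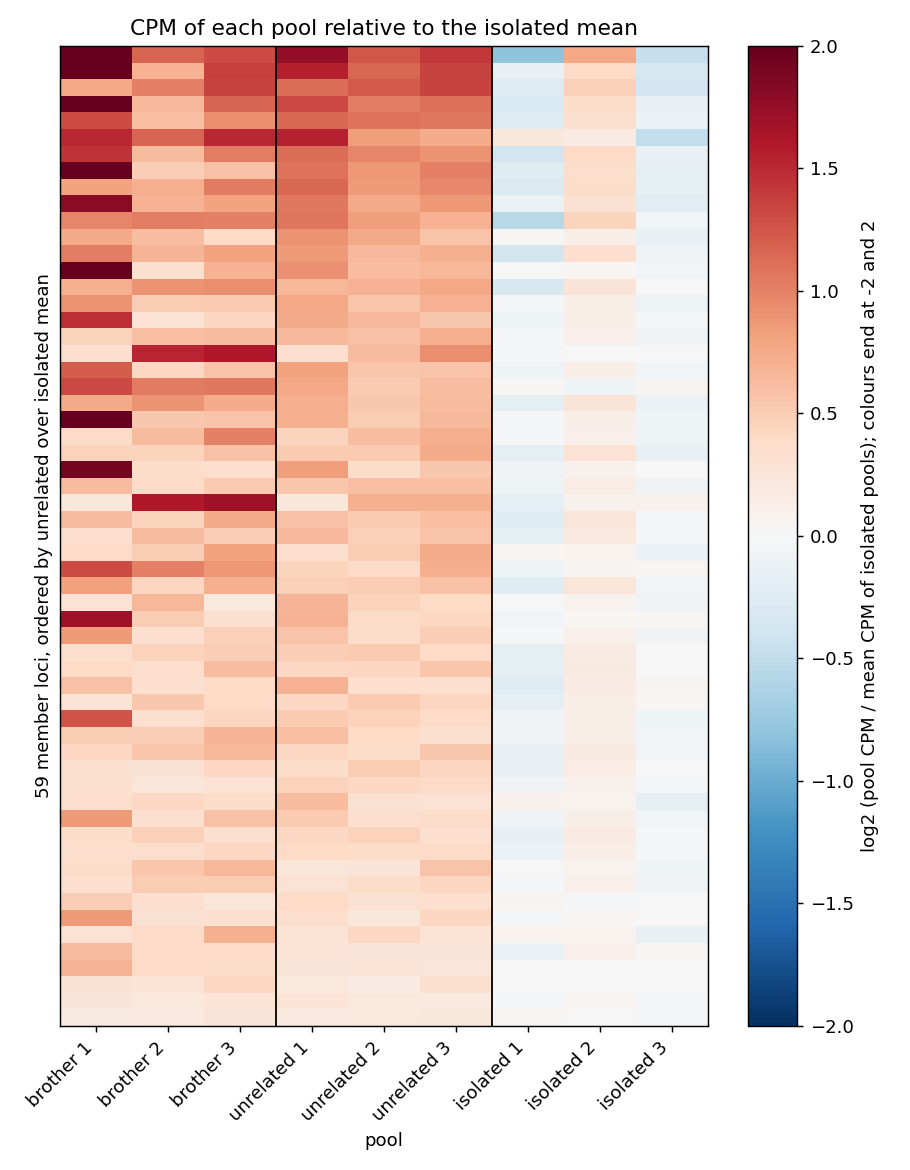
Colour gives the log2 ratio of each pool's CPM to the mean CPM of the 3 isolated pools, with the 59 loci as rows ordered by their ratio of unrelated to isolated mean and the 9 pools as columns. The 6 courted pools are red in all rows by the choice of loci, and isolated pool 2 is mostly the reddest of the isolated pools. In 13 rows brother pool 1 is at least 1.5 times the mean of brother pools 2 and 3, and is darker than both to a varying degree.

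Taken by the gap between the lowest courted and the highest isolated pool, the widest belonged to XLOC_007134 and XLOC_006735. XLOC_007134 had 32.8, 25.8 and 32.8 CPM in brother pools 1 to 3 and 33.6, 20.6 and 19.3 CPM in unrelated pools 1 to 3, against 13.5, 13.0 and 8.20 CPM in isolated pools 1 to 3. Its courted groups overlapped each other, since unrelated pool 1 was the highest of the 9 pools, and its lowest courted pool was 1.43 times its highest isolated pool. XLOC_006735 had 18.7, 15.5 and 15.7 CPM in brother pools and 12.9, 10.9 and 11.5 CPM in unrelated pools, against 7.68, 7.10 and 7.81 CPM in isolated pools, each in the order of pools 1 to 3. For this locus the 3 groups formed separate steps, with brother pools on top, unrelated pools in the middle and isolated pools at the bottom. Its means were 16.6 ± 1.81, 11.8 ± 1.03 and 7.53 ± 0.378 CPM (SD, n = 3 each) in that order. The rule sets the lower step. In the first technical replicate alone the upper step was narrow, with brother pool 3 at 14.546 CPM and unrelated pool 1 at 14.495 CPM. In the second, the lowest brother pool had 15.99 CPM and the highest unrelated pool 12.5 CPM. Isolated pool 1 had 5.30 CPM in the first and 8.99 CPM in the second.

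The size of the set depended on the threshold and on a few pools. The gap ratio was at least 1.2 for 24 loci, at least 1.3 for 7 and at least 1.4 for 1, with a median of 1.17. Just inside the threshold lay loci at 1.101, 1.105 and 1.105 times the highest isolated pool, and just outside it loci at 1.095, 1.099 and 1.0996 times. A further 224 loci met the threshold in 5 of the 6 courted pools. The pool that fell short was brother pool 2 for 160 of them and brother pool 1 for 37, while each other courted pool accounted for 2 to 10. Brother pool 2 was also the lowest courted pool for 23 of the 59 loci, and isolated pool 2 was the highest isolated pool for 49. With single pools left out, 219 loci met the rule when brother pool 2 was dropped, 96 when brother pool 1 was, 336 when isolated pool 2 was, and 61 to 69 when any one of the other 6 pools was.

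Membership also moved with the scaling and the sequencing run. With library sizes scaled by TMM (trimmed mean of M-values, which evens out the typical locus between pools), 102 loci met the rule, 49 of the 59 among them. On that scale the median ratios to isolated over the 59 were 1.53 for brother and 1.45 for unrelated pools. The titles of the libraries carry one run name for the first technical replicates and another for the second, so each was also taken alone. In the first, the 6 courted libraries lay above the 3 isolated libraries for 58 of the 59 loci and 41 met the full rule. In the second, these numbers were 58 and 48, and 35 loci met the full rule in both. The technical replicates come from the same RNA pools and are no independent support. Between the technical replicates of a pool the CPM of a member differed by a median of 1.07-fold and at most by 2.25-fold, and 11 of the 531 pairs were over 1.5-fold apart. The widest pair was that of XLOC_007945 in unrelated pool 1, at 14.5 CPM in the first and 32.5 CPM in the second technical replicate. This locus was lower in the first in all 9 pools, as were other members, XLOC_000321, XLOC_013486 and XLOC_005778 among them.

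Whether the 59 loci also differed between females courted by a brother and by an unrelated male is a contrast the rule does not set, although a locus low in either group could not become a member. The quasi-likelihood test of edgeR on all 9 pools, adjusted over all 15486 loci tested (Benjamini-Hochberg), called none of the 59 at an adjusted p under 0.05, where 30 loci or 0.194% were called over the whole table. Of the 30, 29 were lower and 1 was higher in brother pools. With so small a share called, the lack of calls among 59 loci says little about them. All 59 were among the loci tested. At an unadjusted p under 0.05, 5 of the 59 were higher and 0 lower in brother pools, against 3.36% higher and 3.53% lower over all loci. DESeq2 called 3 of the 59, all higher in brother pools, where it called 0.384% higher among the loci to which it gave an adjusted p. The 3 were XLOC_006735, XLOC_005778 and XLOC_003071, the last named here after its values were seen. Shares of calls over all loci tested, here and below, include loci under the members' minimum of 5 CPM and are no like-for-like background.

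The fitted differences of most of the 59 loci nevertheless lay on the brother side. The fitted log2 difference, brother minus unrelated, was positive for 48 of the 59 loci and ran from -0.11 to 0.89, with a median of 0.16. Over all loci it was positive for 56.6%, with a median of 0.03. The standard errors of the members' differences had a median of 0.13. Without brother pool 1 the median was 0.11 for the 59 loci and -0.02 for all loci, and 44 of the 59 and 47% of all loci were positive. By CPM the brother mean exceeded the unrelated mean for 39 of the 59 loci (66.1%) and 35.7% of the 8268, and without brother pool 1 for 27 of the 59 and 26.6%. By TMM-scaled CPM it did so for 48 of the 59 and 51.9% of the 8268, and without brother pool 1 for 44 of the 59 and 50% of the 8268. The scaling moved members and other loci alike. The rule keeps loci low in brother pools out of the 59 but not out of the 8268 or all loci tested. It trims in particular at brother pool 2, the lowest-lying courted pool in CPM. The numbers of members therefore cannot be read against these shares, and the rule's part in the positive differences was not tested.

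Among the 59, the smallest p-values with brother pools higher belonged to XLOC_005778 and XLOC_006735. XLOC_005778 had 34.5, 27.9 and 25.3 CPM in brother pools 1 to 3 and 18.9, 18.1 and 23.03 CPM in unrelated pools 1 to 3, with isolated pools 1 to 3 at 13.0, 14.5 and 14.3 CPM. All brother pools lay above all unrelated pools, by a narrow margin between brother pool 3 and unrelated pool 3. Its log2 difference, brother minus unrelated, was 0.59 ± 0.11 (SE; edgeR adjusted p = 0.119). For XLOC_006735, whose pools are given above, it was 0.55 ± 0.10 (SE; edgeR adjusted p = 0.119). Without brother pool 1 the differences were 0.52 ± 0.11 and 0.52 ± 0.10 (SE), with edgeR adjusted p of 0.027 and 0.0267. DESeq2 on all 9 pools gave adjusted p of 0.000291 and 2.67e-05. Across all alternatives tried, the adjusted p ran from 0.000291 to 0.529 for XLOC_005778 and from 2.67e-05 to 0.658 for XLOC_006735.

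**Figure D2:**
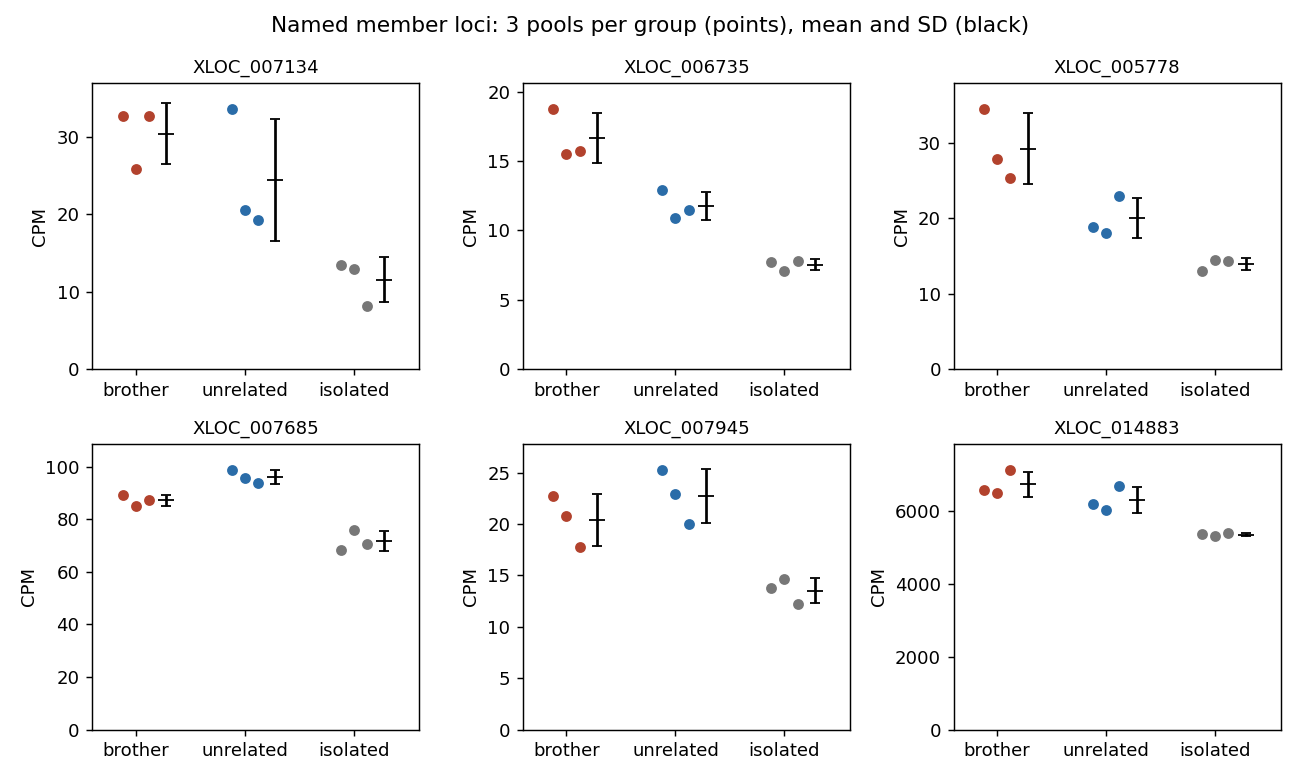
Each panel shows 1 named locus, with CPM on a linear axis from 0 and the brother, unrelated and isolated groups side by side. Points are pools 1 to 3 from left to right, and black marks are the mean and SD. XLOC_006735 forms 3 separate steps, from 15.5 to 18.7 CPM in brother pools, 10.9 to 12.9 CPM in unrelated pools and 7.10 to 7.81 CPM in isolated pools, while XLOC_007685 is slightly lower in brother than in unrelated pools.

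With brother pools lower, the smallest p-values belonged to XLOC_007685 and XLOC_007945, and neither came near the threshold. XLOC_007685 had 89.4, 85.2 and 87.3 CPM in brother pools 1 to 3 and 98.7, 95.7 and 93.7 CPM in unrelated pools 1 to 3, with isolated pools 1 to 3 at 68.4, 75.9 and 70.5 CPM. The courted groups did not overlap in CPM, yet after TMM scaling the log2 difference was only -0.09 ± 0.06 (SE; edgeR adjusted p = 0.809). XLOC_007945 had 22.8, 20.8 and 17.7 CPM in brother pools and 25.2, 22.9 and 20.01 CPM in unrelated pools, with isolated pools at 13.7, 14.6 and 12.2 CPM, and its courted groups overlapped. As its technical replicates were far apart, these pooled values are less certain than most. Its log2 difference was -0.11 ± 0.12 (SE; edgeR adjusted p = 0.881).

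The brother pools all lay above the unrelated pools for 5 of the 59 loci, against 2.5% of the 8268 loci. Besides XLOC_006735 and XLOC_005778 these were XLOC_003071, XLOC_000321 and XLOC_007766, named after their values were seen. They all lay below for 1 of the 59, XLOC_007685, against 11.8%. With TMM scaling the counts were 5 and 0 of the 59, against 4.26% and 6.68%. The rule keeps loci low in brother pools out of the 59 but not out of the 8268. Neither the count of members above nor that below can therefore be read against these shares. XLOC_003071, with close agreement among its unrelated and among its isolated pools, stood at 73.9, 59.7 and 59.1 CPM in brother pools 1 to 3 and 55.2, 55.5 and 54.6 CPM in unrelated pools 1 to 3, with isolated pools 1 to 3 at 46.3, 45.5 and 46.0 CPM. Its log2 difference, brother minus unrelated, was 0.27 ± 0.06 (SE; edgeR adjusted p = 0.237, DESeq2 adjusted p = 0.00143). Leaving out brother pool 1 gave an edgeR adjusted p of 0.0569, and the range over all alternatives was 0.00143 to 0.986.

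Leaving out brother pool 1 brought 4 of the 59 loci past the threshold, all higher in brother pools, where 720 loci or 4.64% were called over the whole table and 2.49% were called higher. Besides XLOC_006735 and XLOC_005778 these were XLOC_007246 and XLOC_007741, named after their values were seen. XLOC_007246 had 51.7, 133.6 and 142 CPM in brother pools 1 to 3 and 51.8, 72.5 and 72.2 CPM in unrelated pools 1 to 3, against 39.0, 46.7 and 46.8 CPM in isolated pools 1 to 3. XLOC_007741 had 88.6, 203.7 and 214 CPM in brother pools and 88.9, 109 and 135 CPM in unrelated pools, against 69.6, 70.9 and 71.1 CPM in isolated pools. For both loci, brother pool 1 stood at the level of unrelated pool 1, while brother pools 2 and 3 stood well above every other pool. The log2 difference of XLOC_007246, brother minus unrelated, was 0.82 ± 0.35 on all 9 pools (SE; edgeR adjusted p = 0.717) and 1.19 ± 0.12 without brother pool 1 (edgeR adjusted p = 0.00384). That of XLOC_007741 was 0.69 ± 0.32 (SE; edgeR adjusted p = 0.741) and 1.02 ± 0.12 (edgeR adjusted p = 0.0058). Over all alternatives the adjusted p ran from 0.00384 to 1 for XLOC_007246 and from 0.0058 to 1 for XLOC_007741.

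**Figure D3:**
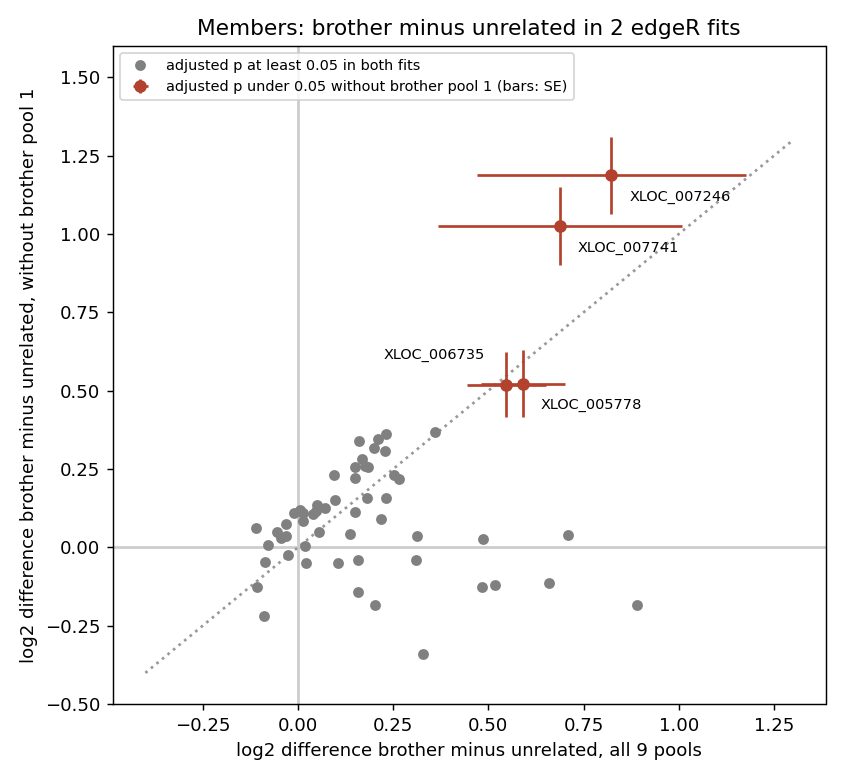
Each point is 1 of the 59 loci, with its fitted log2 difference (brother minus unrelated) from all 9 pools across and without brother pool 1 up, and the dotted line marks equal values. Red points are the 4 loci with an edgeR adjusted p under 0.05 without brother pool 1, with SE bars. Grey points far below the dotted line are loci with a positive difference on all 9 pools and one near or under 0 without brother pool 1.

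In some of the 59 loci the same pools stood high within their groups. In 13 of them (22%) brother pool 1 was at least 1.5 times the mean of brother pools 2 and 3, against 14.4% of the 8268 loci. The most extreme was XLOC_006972, singled out for this ratio of 4.87, with 97.3, 15.5 and 24.5 CPM in brother pools 1 to 3 and 27.97, 21.1 and 24.2 CPM in unrelated pools 1 to 3, against 8.57, 12.5 and 7.46 CPM in isolated pools 1 to 3. Within its groups, the high pools were brother pool 1, unrelated pool 1 and isolated pool 2. The same pools were the highest of their groups in all 13 loci. Of the 1179 other loci at 5 CPM or more with the same excess in brother pool 1, unrelated pool 1 was the highest unrelated pool in 62.9%, isolated pool 2 the highest isolated pool in 80.8%, and both held in 52%. The 13 loci were picked by this ratio after their values were seen and received no test. In them unrelated pool 1 was a median of 1.19 times the mean of the other unrelated pools, against 1.07 in the 1179 other loci, and isolated pool 2 was a median of 1.16 times the mean of the other isolated pools in both sets.

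As the rule requires of each courted pool, these 13 loci were above isolation in the other courted pools too. Their mean over brother pools 2 and 3 was 1.28 to 2.36 times the isolated mean with a median of 1.45, and their unrelated mean was 1.37 to 2.81 times it with a median of 1.67. In 2 of the 59 loci, XLOC_007246 and XLOC_007741, brother pool 1 was at most the mean of brother pools 2 and 3 divided by 1.5, against 3.89% of the 8268 loci. In both, unrelated pool 1 was also the lowest unrelated pool. In the 44 loci between these limits, brother pool 1 was a median of 0.976 times the mean of brother pools 2 and 3, and both unrelated pool 1 and isolated pool 2 were the highest of their groups in 17 of the 44 (38.6%), against 12.7% of the 6710 other loci between the limits. Across the 44, brother pools 2 and 3 averaged a median of 1.43 times the isolated mean and unrelated pools a median of 1.39 times.

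**Figure D4:**
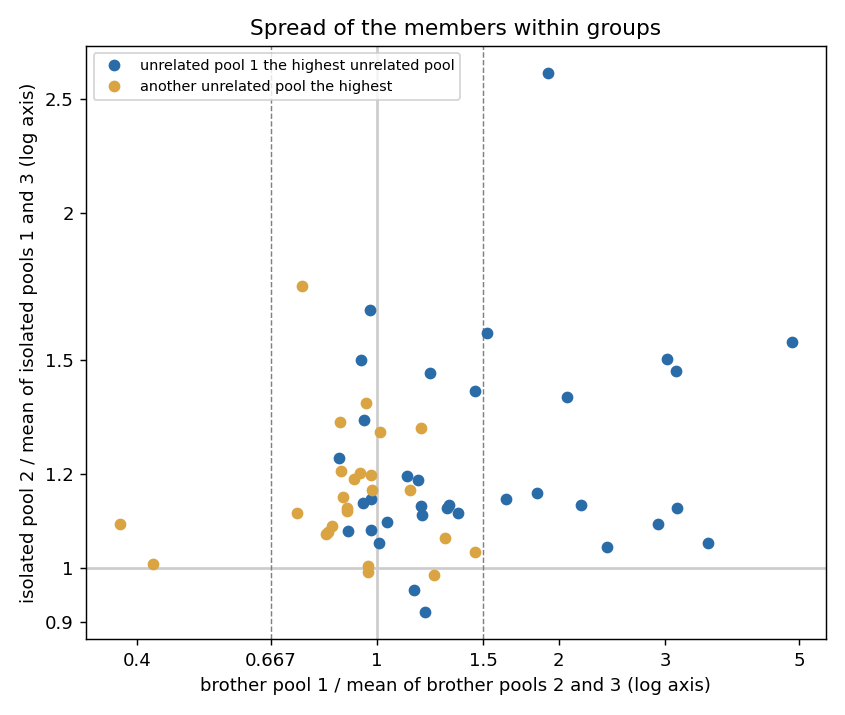
Each point is 1 of the 59 loci, with the ratio of brother pool 1 to the mean of brother pools 2 and 3 across and the ratio of isolated pool 2 to the mean of isolated pools 1 and 3 up, both on log axes. Dashed lines mark ratios of 1.5 and its inverse, and all 13 points right of the first are blue (unrelated pool 1 the highest unrelated pool) and above 1 on the vertical axis.

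Isolated pool 2 was the highest isolated pool in 83.1% of the 59 loci and 49.4% of the 8268, and so stood nearest to the courted pools. In XLOC_015557, singled out for the widest isolated spread at 2.99 times between its highest and lowest pool, brother pools 1 to 3 had 22.9, 11.3 and 12.5 CPM and unrelated pools 1 to 3 had 17.1, 11.96 and 13.5 CPM, against 2.89, 8.62 and 3.67 CPM in isolated pools 1 to 3. This locus also had the lowest isolated mean of the 59, at 5.06 CPM, and reached the minimum of 5 CPM only through isolated pool 2. Over the 59 loci the spread between the highest and lowest isolated pool had a median of 1.18 times, against 1.12 times over the 8268. Few members were even throughout. The coefficient of variation was under 10% in all 3 groups for 9 of the 59 loci, against 35.7% of the 8268 loci, and its median over the 59 was 12.6% in brother, 7.4% in unrelated and 8.76% in isolated pools, against 11.7%, 4.94% and 6.02% over the 8268. The tagwise biological coefficient of variation that edgeR estimated over all 9 pools, which draws on the spread of loci of like level, had a median of 13.0% for the 59 loci and 11.3% for the 8268, and 20.4% over all 15486 loci tested, those under 5 CPM included. The 59 also held more loci between 5 and 10 CPM, 12 of 59 against 13.1% of the 8268. In the sums over the 59 loci, the lowest courted pool was unrelated pool 2 at 13519 CPM, against 11146 CPM in isolated pool 2, the highest isolated pool. That these sums did not overlap follows from the rule, which each locus meets by itself.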

How the data were processed

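The values deposited by the authors are raw counts (whole numbers, not normalised) for 18 libraries and 16752 loci. The submitters' processing notes name Trimmomatic 0.36, TopHat, Cufflinks and HTSeq with no role. Genome build, annotation and strand setting are not given in these sources. Reads shared by overlapping or near-identical loci cannot be told apart. Columns were matched to samples by condition, replicate number and the letter of the second technical replicate, and columns naming no male were taken as isolated. Technical replicates were summed to 9 pools of 62341897 to 103527471 counts. CPM values use unscaled pool totals unless TMM is named. edgeR 4.0.16 (R 4.3.3, filterByExpr, TMM, quasi-likelihood F-test, a coefficient per group) gave brother minus unrelated over 15486 loci. Its p-values received Benjamini-Hochberg adjustment, with a threshold of 0.05. The fit was also run on simulated counts with no outlying pool, which cannot show how it handles brother pool 1. SE is the absolute log2 difference over the square root of F. DESeq2 1.42.0 was an alternative. Loci named were the 2 members with the widest gap, the 2 with the smallest p in each direction and the most abundant one, and others are marked as named after their values were seen. The members and lists were chosen with earlier results of these data known. Deviations of same-numbered pools correlated between -0.308 and 0.186, so numbers were not taken to pair pools.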

Additional observations from a re-analysis of the deposited data

How the results depend on the processing

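The number of loci meeting the rule was 140 with a lower multiple of the highest isolated pool, 10 and 0 with 2 higher ones (the last 1.5), and 102 with TMM-scaled CPM; leaving out single pools gave 61 to 336. Other minimum levels and single technical replicates kept it within 1.5 times. For brother minus unrelated, DESeq2 called 194 loci, the 6 courted pools fitted alone 1, the replicate block 3 and the first technical replicate 15, against 30 in the fit of all 9 pools. Leaving out single pools gave 1 to 720. There were 720 without brother pool 1, 1 without brother pool 2 or 3, and 83, 7 and 5 without unrelated pools 1 to 3. Leaving out each isolated pool in turn gave 5. Of the 59 members, 0 were called with the replicate block, 3 by DESeq2 and 0 to 4 with single pools left out. The number with all brother pools above the unrelated pools was 3 in the second technical replicate (2.58% of the 8268 loci) and 5 to 10 with single pools left out (3.22% to 10.2%). The number below was 0 with TMM-scaled CPM (6.68%), 3 in the second technical replicate (8.91%) and 2 to 7 with single pools left out (13% to 46.1%). Without brother pool 1 these numbers were 10 (10.2%) and 6 (46.1%). The cause of these shifts was not tested. The rule keeps loci low in brother pools out of the 59 but not out of the 8268. Neither the numbers above nor those below can therefore be read against their shares. The median difference of the members moved by less than the spread between pools (SD 0.108 on the log2 scale) in the 17 alternatives tried, and the 6 loci named by rule kept their direction in all 102 refits, with 4 of these passing the threshold.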
